A study of Mus musculus with 6 samples.

Results

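The enzymes and transporters of sugar use were followed in activated CD8 T cells of young and aged mice: 24 genes of glycolysis with its transporters and pyruvate and lactate steps, 5 of the pentose phosphate pathway and 8 of glycogen metabolism. The 37 genes were taken from a list of these pathways, with the condition that a gene averaged at least 1 CPM (reads scaled to a common library total) over the 6 libraries. All 37 listed genes met it, among 10511 genes that did so and 25654 gene identifiers with a value.

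CD8 T cells are the killer lymphocytes of adaptive immunity, and those used here came from spleens of wild-type (WT) female C57BL/6 mice. The young mice were 6 weeks old and the aged mice around 65 weeks. Cells of both groups were activated for 2 days on immobilized antibodies to TCR-β (3 µg/ml) and CD28 (1 µg/ml) with IL-2 at 10 ng/ml, then kept for 5 days in the same dose of IL-2 alone, 7 days in total. There were 3 libraries for each age, labelled as biological replicates. Whether each library stands for a separate mouse is not in the labels, so the p-values measure the spread between these libraries, which may be technical.

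Glycolysis splits glucose into pyruvate and yields ATP quickly, and T cells raise it on activation, exporting much of the carbon as lactate. The pentose phosphate pathway branches off at glucose 6-phosphate and supplies NADPH for synthesis and antioxidant defence and ribose for nucleotides. Glycogen is a branched store of glucose, built from UDP-glucose by glycogen synthase and the branching enzyme and released again by glycogen phosphorylase.

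In aged cells 17 of the 24 glycolysis genes and 5 of the 8 glycogen genes fell, against 0 of the 5 pentose phosphate genes. Pygl, the glycogen phosphorylase first described in liver, fell by 2.94 ± 0.33 (SE, 3 libraries per group) on the log2(CPM + 1) scale. Aldoc, an aldolase, fell by 1.87 ± 0.14, and Slc2a3, the glucose transporter GLUT3, fell by 1.19 ± 0.11. Only 2 of the 37 genes rose, Slc16a1, the monocarboxylate transporter MCT1, by 0.87 ± 0.14 and Taldo1, the transaldolase of the pentose phosphate pathway, by 0.36 ± 0.08. The test was limma on log2(CPM + 1), two-sided, with Benjamini-Hochberg adjustment over all 10511 genes and a threshold of 0.05. Over all genes tested it called 12.5% lower and 16.2% higher, while of the 37 genes 22 (59.5%) were lower, 2 (5.41%) higher and 13 did not pass. Where the mean level reached 20 CPM, 16% of all genes tested were called lower, and 21 of the 32 genes of the 3 pathways at that level were.

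The median log2 fold change, aged minus young, was -0.49 for glycolysis, 0.06 for the pentose phosphate genes and -0.58 for glycogen, beside 0.03 for all genes tested. No test was made between the pathways. In 23 of the 37 genes every aged library lay below every young one, and in 2 every aged library lay above. Over all genes tested these shares were 18.3% and 22.5%. Of the 22 lower genes, edgeR and DESeq2 on whole reads recovered from the CPM values also called 21, the exception being Slc16a3 in DESeq2, and both called the 2 higher genes.

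**Figure D1:**
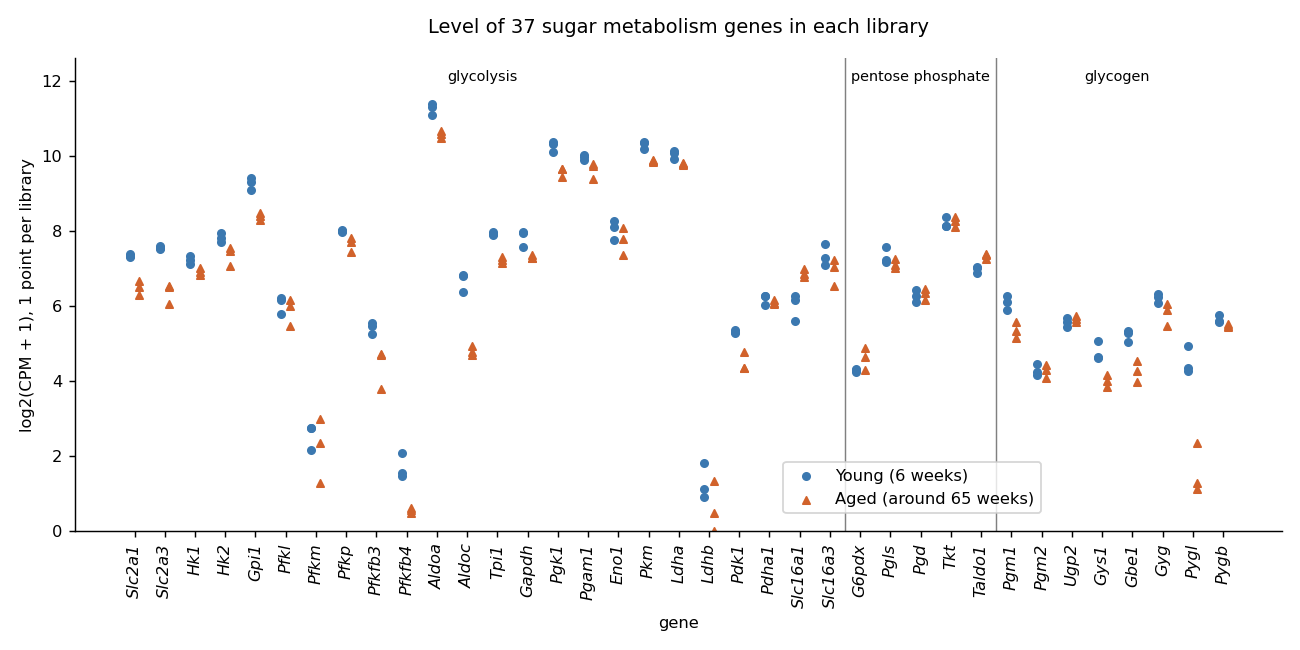
Level of each of the 37 genes in each library, on log2(CPM + 1), 1 point per library, young as circles and aged as triangles, with the pathways side by side. The aged points lie below the young for most glycolysis and glycogen genes, above them for Slc16a1 and Taldo1, and mixed with them for the other pentose phosphate genes.

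The 24 glycolysis genes together made up 9201 to 10300 CPM in the young libraries and 6573 to 7197 CPM in the aged ones. The 8 glycogen genes summed to 333 to 346 CPM in young and 222 to 252.5 CPM in aged cells. The pentose phosphate sum overlapped, at 628 to 743 CPM in young and 655 to 753 CPM in aged cells. Since each read marks 1 transcript end, a CPM value does not grow with gene length. Levels can be set side by side as far as reads were assigned to the right gene. Gapdh and Eno1 are the clearest exceptions, since most of their 3′ end sequence is shared with near-identical copies and their levels depend on how reads were assigned. In all, 9 of the 37 genes share some 3′ end sequence with other annotated copies. Among them are Gpi1 (22.8% of 50-base windows), Pkm (20.7%), Ldha (20.5%), Tpi1 (18.1%) and Aldoa (17.9%). Their levels carry the same doubt to a smaller degree. Aldoa, Pkm, Pgk1, Ldha and Pgam1 held 71.2% of the glycolysis sum. That sum leaves out Eno1b, the copy of Eno1, which was at 873 to 1080 CPM over the 6 libraries. Across the 37 genes the log2 mean level and the log2 fold change were weakly related (Pearson r = 0.20, Spearman rho = 0.13), a description over genes that share the same libraries.

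**Figure D2:**
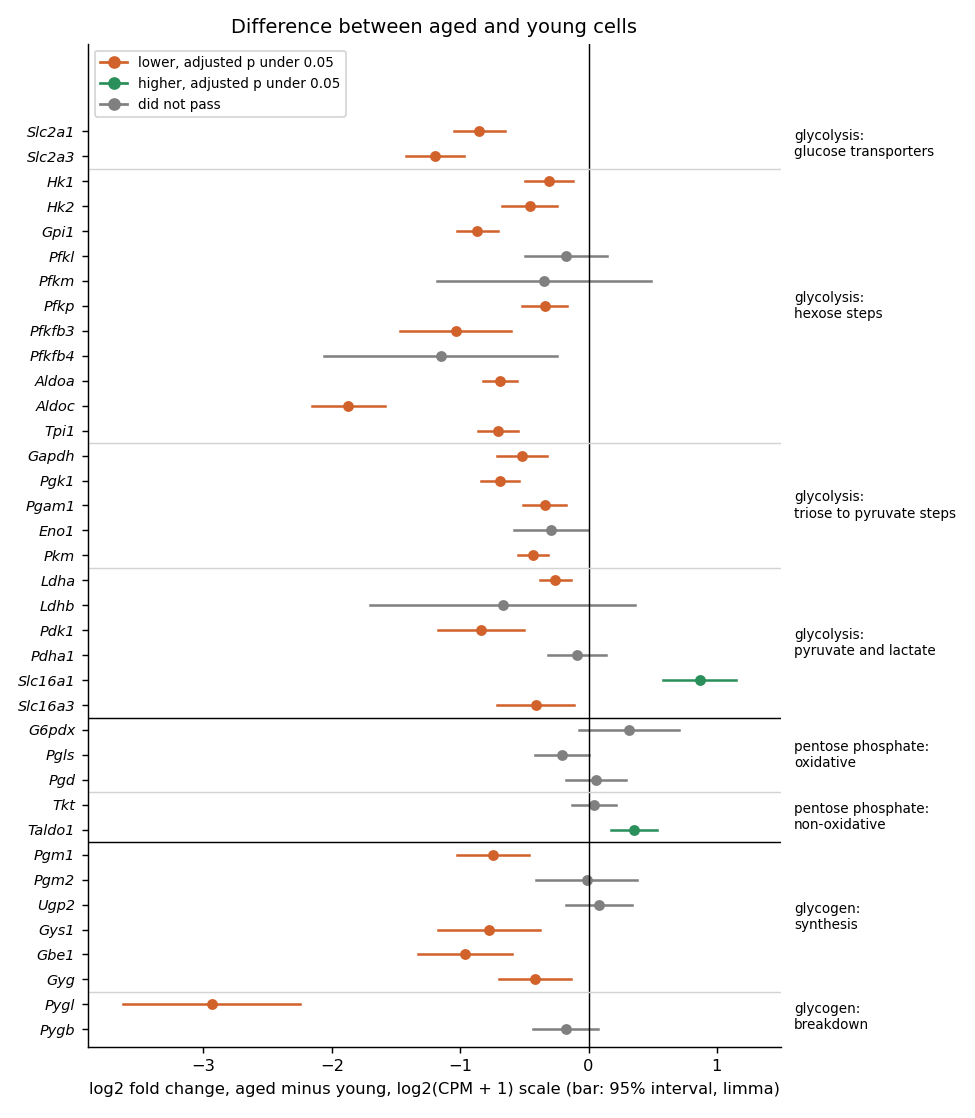
Log2 fold change of each gene, aged minus young on log2(CPM + 1), with its 95% interval from limma, ordered by pathway and role. Genes past the threshold are coloured, and Pygl (-2.94) and Aldoc (-1.87) stand farthest to the left, Slc16a1 (0.87) farthest to the right.

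Recovered totals were 1952552 to 2785915 reads per library, so that 1 read was worth 0.359 to 0.512 CPM. Of 10 listed proliferation genes 10 were higher in aged cells, with a median log2 fold change of 1.01. Mki67 was 197 to 255 CPM in young and 454 to 478 CPM in aged libraries. The T cell label held, with Cd8a at 244 to 344 CPM, Cd8b1 at 276 to 407 CPM and Cd4 at no more than 1 read in any library. Of 5 T cell genes Cd3d, Cd3e, Cd3g and Cd8b1 were lower, with log2 fold changes of -0.47 to -0.33, and Cd8a did not pass. Of 34 markers of other cell types 14 were at 0 in every library, among them Lyz2, Adgre1, Cd79a and S100a8, 12 were tested, 4 were lower and 2 higher. These 34 summed to 205 to 219.5 CPM in young and 200.5 to 217 CPM in aged libraries, mostly from Ly6g and Fcer1g. Within that sum the lower calls included Cd79b, known from B cells, at means of 6.34 and 0.982 CPM, and the myeloid genes Itgam and Cd68. The 6 red cell markers summed to 10.0 to 22.3 CPM in young and 1.15 to 4.71 CPM in aged libraries. Of 3 natural killer cell markers Klre1 rose from a mean of 3.12 to 13.1 CPM. Klrb1c went the other way, from 22.8 to 15.7 CPM, without passing (limma adjusted p = 0.0599), and Ncr1 was under 1 CPM. The 3 summed to 21.1 to 30.4 CPM in young and 24.5 to 33.8 CPM in aged libraries. Fcer1g rose from 50.1 to 71.9 CPM. The proliferation genes and these markers moved in the same comparison as every result below, and their part was not tested. In bulk samples, fewer cells of a type and less RNA per cell cannot be told apart.

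Both glucose transporters fell. Slc2a1 encodes GLUT1, the main carrier of glucose into activated T cells (chromosome 4, 119108711 to 119137983, plus strand, GRCm38). It stood at 157, 159 and 166 CPM in the young libraries (replicates 1, 2 and 3, the order used throughout) and at 99.9, 77.8 and 89.4 CPM in the aged ones. The lowest young library was well above the highest aged one, and the group means (160.5 ± 4.81 and 89.0 ± 11.0 CPM, SD, n = 3) differed 1.80-fold. On the log2 scale Slc2a1 fell by 0.85 ± 0.10 (SE), with a limma adjusted p of 2.14e-06. Slc2a3 encodes GLUT3, a carrier of high affinity (chromosome 6, 122727809 to 122801640, minus strand). It was at 184, 187 and 191 CPM in the young libraries and at 89.1, 65.6 and 91.8 CPM in the aged ones. It fell by 1.19 ± 0.11 (SE; limma adjusted p = 1.60e-07), 2.28-fold between the group means, and again no libraries overlapped.

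Promoters of 5 genes that moved are shown because these genes changed in the same cells and because glycolytic promoters are textbook targets of HIF-1, which binds a core of ACGTG or GCGTG. The windows run from 250 bases before to 50 after a RefSeq transcription start (GRCm38.p6), 5′ to 3′ on the gene's strand. Capitals mark ACGTG or GCGTG on either strand, so CACGT and CACGC are matches on the opposite strand. The E-box CACGTG, a site of the MYC family, contains ACGTG on both strands and overlaps it.
Slc2a1, chr4:119108495-119108794, plus strand: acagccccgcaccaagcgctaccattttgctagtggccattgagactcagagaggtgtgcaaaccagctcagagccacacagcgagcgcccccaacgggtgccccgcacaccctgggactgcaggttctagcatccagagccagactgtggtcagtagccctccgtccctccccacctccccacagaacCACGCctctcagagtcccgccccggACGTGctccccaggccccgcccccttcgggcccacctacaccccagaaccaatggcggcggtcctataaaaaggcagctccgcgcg
Aldoc, chr11:78322823-78323122, plus strand: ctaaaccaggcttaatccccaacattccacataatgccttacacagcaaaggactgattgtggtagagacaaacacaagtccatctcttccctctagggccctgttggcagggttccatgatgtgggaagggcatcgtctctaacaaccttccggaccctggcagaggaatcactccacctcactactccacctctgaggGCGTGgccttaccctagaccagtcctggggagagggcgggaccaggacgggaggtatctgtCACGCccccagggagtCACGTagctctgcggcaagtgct
Pgm1, chr4:99929201-99929500, plus strand: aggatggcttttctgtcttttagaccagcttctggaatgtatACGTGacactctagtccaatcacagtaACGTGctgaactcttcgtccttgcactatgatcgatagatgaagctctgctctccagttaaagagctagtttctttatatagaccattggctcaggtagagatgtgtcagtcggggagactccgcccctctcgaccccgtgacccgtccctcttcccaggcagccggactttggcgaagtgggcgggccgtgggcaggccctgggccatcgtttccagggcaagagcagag
Pygl, chr12:70227634-70227933, minus strand: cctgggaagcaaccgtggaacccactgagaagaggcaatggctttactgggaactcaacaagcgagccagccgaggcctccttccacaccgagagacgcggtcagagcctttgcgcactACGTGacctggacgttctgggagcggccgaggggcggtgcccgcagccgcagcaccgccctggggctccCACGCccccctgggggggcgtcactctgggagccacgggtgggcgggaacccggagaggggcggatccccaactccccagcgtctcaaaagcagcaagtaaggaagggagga
Slc16a1, chr3:104638414-104638713, plus strand: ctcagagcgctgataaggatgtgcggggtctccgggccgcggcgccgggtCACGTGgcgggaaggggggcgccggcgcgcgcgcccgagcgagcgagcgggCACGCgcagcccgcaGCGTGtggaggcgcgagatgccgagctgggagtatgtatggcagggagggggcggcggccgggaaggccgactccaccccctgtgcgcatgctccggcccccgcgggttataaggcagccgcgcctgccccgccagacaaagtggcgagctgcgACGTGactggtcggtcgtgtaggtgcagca
A window was found for 36 of the 37 genes, 51 windows in all, and not for Slc2a3. Either core was present in 78.4% of these windows, in 62.9% of the windows of all genes tested and in 43.8% of all windows in the table. Counted by gene, either core was present in 17 of 21 lower genes (81.0%) and in 13 of 13 genes that did not pass (100%), beside 69.0% of genes tested. The 2 forms are also given apart, as a description of few genes. The lower genes had 29 windows and those that did not pass 20, and a gene with more windows has more places for a match. ACGTG was present in 15 of 21 lower genes (71.4%) and in 5 of 13 that did not pass (38.5%), beside 30.3% of genes tested. GCGTG was present in 11 of 21 lower genes (52.4%) and in 12 of 13 that did not pass (92.3%), beside 57.3% of genes tested. The E-box was present in 13.9% of the genes of these pathways and in 12.1% of genes tested. Of the windows shown, Slc16a1, which rose, held 5 core matches, counting both strands of its 1 E-box. Aldoc held 3, and Slc2a1, Pgm1 and Pygl held 2 each. Among windows not shown, Ldha, which fell, held 7 core matches in a window, counting both strands of its 2 E-boxes, and 2 in another. Hk1, which also fell, held 5 in a window and 0 in another. Ugp2, which did not pass, held 6 in a window and 0 in another. Another window of Aldoc held 1. Of the other genes that fell, Gpi1, Tpi1, Gys1 and Gbe1 held 0. A match is a description of letters in the window, not a bound site, and no test was made.

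Of the 11 genes of the hexose steps, from glucose phosphorylation to the triose phosphates, 8 (72.7%) fell and 3 did not pass. Over all genes tested 12.5% were lower. Hexokinase traps glucose in the cell as glucose 6-phosphate. Hk1, the constitutive form, was at 148, 139 and 160 CPM in young and 112, 119 and 129 CPM in aged libraries and fell by 0.31 ± 0.09 (SE; limma adjusted p = 0.0128). Hk2, the inducible form, was at 244, 208 and 223 CPM in young and 177, 133 and 184.5 CPM in aged libraries and fell by 0.46 ± 0.10 (SE; limma adjusted p = 0.00226). Neither gene's groups overlapped, but Hk1 did not pass without Aged replicate 1 (adjusted p = 0.0661) or without Young replicate 3 (adjusted p = 0.0574). Gpi1, which converts glucose 6-phosphate to fructose 6-phosphate, the branch point towards the pentose phosphate pathway, moved more. Its values were 628, 676 and 545 CPM in young and 356, 315 and 339 CPM in aged libraries, 1.83-fold lower. It fell by 0.87 ± 0.08 (SE; limma adjusted p = 9.87e-08), far more than the spread of either group.

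Phosphofructokinase commits the hexose to glycolysis, and in these cells Pfkp was its most abundant subunit. Pfkp was at 257, 248 and 253 CPM in young and 206, 173 and 222 CPM in aged libraries and fell by 0.34 ± 0.08 (SE; limma adjusted p = 0.00459). Pitrm1 overlaps its 3′ end on the opposite strand, and whether counting used strand is not given in the sources used here. Pfkl, at means of 65.6 and 58.7 CPM, did not pass, with a log2 fold change of -0.17 and a 95% interval of -0.50 to 0.15. Pfkm, the muscle subunit, was at 1.41 to 6.90 CPM in all libraries and did not pass either (-0.35, interval -1.18 to 0.48). Pfkfb3 makes fructose 2,6-bisphosphate, the strongest activator of phosphofructokinase. It was at 43.5, 37.3 and 45.3 CPM in young and 24.6, 12.7 and 25.4 CPM in aged libraries and fell by 1.03 ± 0.21 (SE; limma adjusted p = 7.98e-04). All aged libraries were below all young ones, with Aged replicate 2 the lowest, and without that library Pfkfb3 fell by 0.72. Pfkfb4, its close relative, had 18 reads in young and 3 in aged cells. Its pooled ratio was 5.22 with a 95% counting interval of 1.52 to 27.7, and limma left it just outside the threshold (adjusted p = 0.0521).

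Aldolase splits the 6-carbon sugar into the triose phosphates. Aldoa, the most abundant of the 37 genes, was at 2551, 2673 and 2198 CPM in young and 1616, 1540 and 1437 CPM in aged libraries. It fell by 0.69 ± 0.06 (SE; limma adjusted p = 2.21e-07), 1.62-fold. Aldoc, the aldolase best known from brain (chromosome 11, 78322968 to 78327781, plus strand), moved most in glycolysis. Its level was 110, 113 and 81.8 CPM in young and 29.7, 26.1 and 24.9 CPM in aged libraries, so that the lowest young library was still far above all 3 aged ones. Aldoc fell by 1.87 ± 0.14 (SE; limma adjusted p = 1.23e-08), 3.78-fold between means of 102 ± 17.3 and 26.9 ± 2.49 CPM (SD, n = 3). Tpi1, which interconverts the triose phosphates, was at 240, 251 and 237 CPM in young and 157, 141 and 148 CPM in aged libraries. It fell by 0.70 ± 0.08 (SE; limma adjusted p = 1.13e-06) with no overlap, and Spsb2 overlaps its 3′ end on the opposite strand.

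**Figure D3:**
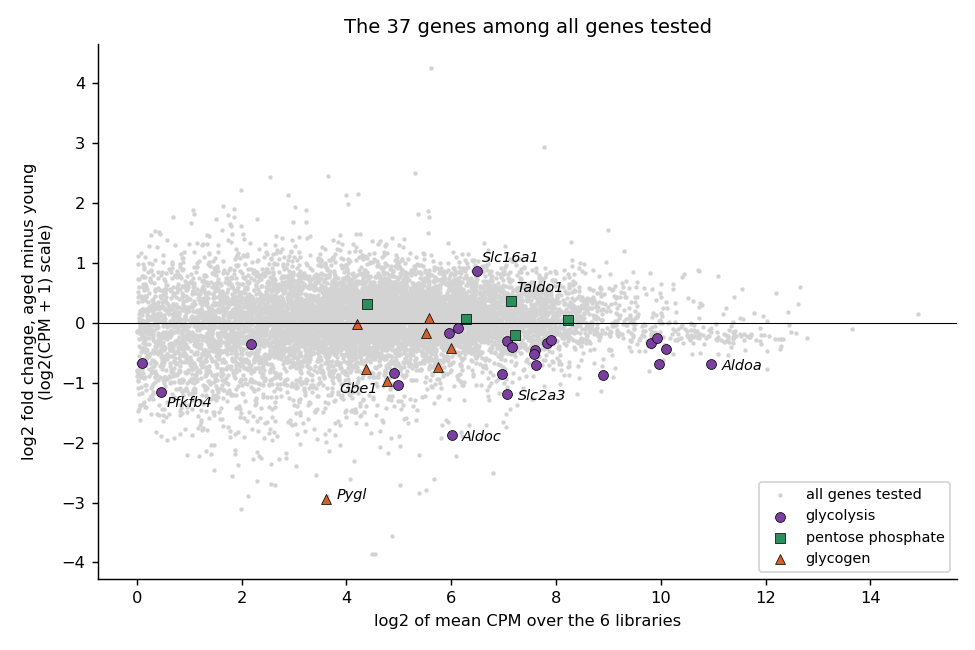
Log2 fold change against log2 mean CPM for all 10511 genes tested (grey) with the glycolysis, pentose phosphate and glycogen genes marked. Most glycolysis points lie below 0 at every level, from Pfkfb4 near 1 CPM to Aldoa near 2002 CPM, and the pentose phosphate points lie around 0.

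From triose phosphate to pyruvate 4 of 5 genes (80%, beside 12.5% over all genes) fell and Eno1 did not pass. Gapdh, the dehydrogenase that makes NADH and is often used as a reference gene, was at 245, 248 and 188 CPM in young and 155, 162.5 and 153 CPM in aged libraries. It fell by 0.52 ± 0.09 (SE; limma adjusted p = 3.27e-04) with no overlap between groups. Its 3′ end shares 78.3% of its 50-base windows with 172 other annotated copies, so how reads were assigned could change its level. Pgk1, which makes the first ATP, was at 1282, 1326 and 1100 CPM in young and 806, 800 and 690 CPM in aged libraries. It fell by 0.69 ± 0.07 (SE; limma adjusted p = 7.34e-07), about the size of those of Aldoa and Tpi1. Pgam1, the mutase, was at 1042, 954 and 1009 CPM in young and 844, 663 and 881.5 CPM in aged libraries and fell by 0.34 ± 0.08 (SE; limma adjusted p = 0.003). Pkm, the pyruvate kinase, was at 1312, 1302 and 1163 CPM in young and 948, 918 and 929.5 CPM in aged libraries and fell by 0.43 ± 0.06 (SE; limma adjusted p = 1.05e-05). Its splice forms PKM1 and PKM2 share the 3′ end and are not separated by these reads.

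Enolase gave the only step of this stretch with overlapping libraries. Eno1 was at 272, 308 and 214 CPM in young and 269, 221 and 162 CPM in aged libraries (-0.29 ± 0.14, SE; limma adjusted p = 0.121). Its 3′ end shares 86.9% of its 50-base windows with Eno1b, a near-identical copy, and Eno1b held more reads, at 993 to 1080 CPM in young and 873 to 933 CPM in aged libraries. The split between these copies is therefore uncertain. With their reads added, an alternative chosen after seeing the data, the sum was 1352, 1383 and 1207 CPM in young and 1142, 1104 and 1095 CPM in aged libraries. That sum fell by 0.24 ± 0.06 (SE; limma adjusted p = 0.00373), with every aged library below every young one. Eno1 alone passed without Aged replicate 1 (adjusted p = 0.0168) and without Young replicate 3 (adjusted p = 0.0195), and its log2 fold change was -0.10 without Aged replicate 3 and -0.18 without Young replicate 2.

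At pyruvate and lactate 3 of 6 genes (50%) fell, 1 (16.7%) rose and 2 did not pass. Over all genes tested 12.5% were lower and 16.2% higher, so the share that rose was near that of all genes. Ldha, which turns pyruvate into lactate and renews NAD+, was at 1087, 1111 and 970 CPM in young and 895, 865 and 884 CPM in aged libraries. It fell by 0.26 ± 0.06 (SE; limma adjusted p = 0.00221), the least among the 22 lower genes, and the groups did not overlap. Ldhb, the other common lactate dehydrogenase subunit, had only 12 reads in young and 4 in aged cells, with a ratio of 2.61 and a counting interval of 0.791 to 11.1. Pdk1 blocks pyruvate dehydrogenase and so limits the entry of pyruvate carbon into the citric acid cycle. It was at 37.8, 38.4 and 40.3 CPM in young and 26.1, 19.2 and 19.3 CPM in aged libraries and fell by 0.84 ± 0.16 (SE; limma adjusted p = 5.10e-04). Pdha1, the catalytic subunit that Pdk1 acts on, did not pass, at means of 72.1 and 67.6 CPM (-0.09, interval -0.32 to 0.14), and Map3k15 overlaps its 3′ end on the opposite strand.

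The monocarboxylate transporters went opposite ways. Slc16a1, which carries lactate and pyruvate in either direction (chromosome 3, 104638668 to 104658462, plus strand), was at 70.0, 47.0 and 75.3 CPM in young and 114, 108 and 125 CPM in aged libraries. It rose by 0.87 ± 0.14 on the log2 scale (SE; limma adjusted p = 7.72e-05), 1.80-fold, with all 3 aged libraries above all 3 young ones. It was the only one of the 24 glycolysis genes to rise, in the limma fit and in every alternative. Slc16a3, the lactate exporter MCT4, was at 155, 136 and 201 CPM in young and 131, 91.6 and 148 CPM in aged libraries. Its groups overlapped, and it fell by 0.41 ± 0.14 (SE; limma adjusted p = 0.0384), a call that did not hold in DESeq2 (adjusted p = 0.223), with a pseudocount of 0.1 (0.0554), or without Aged replicate 2 (0.221), Young replicate 1 (0.0799) or Young replicate 3 (0.201).

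None of the 5 pentose phosphate genes was called lower by limma. At an unadjusted p under 0.05 and in DESeq2 the count was also 0, and in edgeR it was 1. Of the oxidative steps, which make NADPH, G6pdx, the entry enzyme, was at means of 18.5 and 23.5 CPM (0.31, interval -0.08 to 0.70, limma adjusted p = 0.231). Pgls, the lactonase, was at 144, 147 and 188 CPM in young and 151, 128 and 134 CPM in aged libraries (-0.20, interval -0.42 to 0.01, limma adjusted p = 0.142). Young replicate 3 was high and the rest overlapped, and Pgls passed as lower in edgeR (adjusted p = 0.0458) and with upper-quartile scaling (0.0342). Pgd, which makes ribulose 5-phosphate, was at means of 76.1 and 79.3 CPM with a log2 fold change of 0.06 (interval -0.17 to 0.29), and -0.02 under upper-quartile scaling.

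The non-oxidative steps trade carbon back to glycolysis. Tkt, the transketolase, was the most abundant of the pathway at 277, 278.5 and 332 CPM in young and 328, 275 and 309 CPM in aged libraries. Its groups overlapped, and its log2 fold change of 0.04 (interval -0.13 to 0.21) turned to between -0.04 and -0.01 under the other scalings and count models. Taldo1, the transaldolase (chromosome 7, 141392199 to 141402968, plus strand), was at 130, 116 and 129 CPM in young and 166, 162 and 151 CPM in aged libraries. It rose by 0.36 ± 0.08 (SE; limma adjusted p = 0.00341), 1.28-fold, and no libraries overlapped.

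Glycogen metabolism resembled glycolysis in its counts, with 4 of 6 synthesis genes (66.7%) and 1 of 2 phosphorylases (50%) lower. Over all genes tested 12.5% were lower. Pgm1 interconverts glucose 1-phosphate and glucose 6-phosphate, linking glycogen to glycolysis (ENSMUSG00000025791, chromosome 4, 99929414 to 99987294, plus strand). It was at 58.7, 67.8 and 75.3 CPM in young and 38.9, 34.5 and 46.1 CPM in aged libraries and fell by 0.74 ± 0.13 (SE; limma adjusted p = 2.98e-04). Pgm2 (ENSMUSG00000029171, chromosome 5) acts mainly on sugar phosphates of ribose, though the list used here counts it with glycogen synthesis. Its means were 18.5 and 18.3 CPM (-0.02, interval -0.41 to 0.38). The 2 symbols have been used for each other in older mouse annotation, so the identifiers decide which is meant. Ugp2, which makes UDP-glucose, did not pass, at 46.3 and 49.1 CPM (0.08, interval -0.17 to 0.34).

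The enzymes that build the polymer all fell. Gyg, glycogenin, the protein primer of the chain, was at 73.9, 66.8 and 79.2 CPM in young and 57.9, 42.9 and 64.9 CPM in aged libraries. It fell by 0.42 ± 0.14 (SE; limma adjusted p = 0.0256), a call lost without Aged replicate 2 (adjusted p = 0.158), Young replicate 1 (0.0805) or Young replicate 3 (0.0862). Gys1, the glycogen synthase of muscle and most other tissues, was at 32.2, 23.3 and 23.8 CPM in young and 14.9, 16.9 and 13.2 CPM in aged libraries and fell by 0.77 ± 0.19 (SE; limma adjusted p = 0.00423). Gbe1, the branching enzyme, was at 39.1, 38.1 and 31.9 CPM in young and 22.0, 14.6 and 18.4 CPM in aged libraries. It fell by 0.96 ± 0.18 (SE; limma adjusted p = 3.25e-04), 1.98-fold, and neither Gys1 nor Gbe1 had overlapping libraries.

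Pygl releases glucose 1-phosphate from glycogen and fell farthest of the 37 genes (chromosome 12, 70190811 to 70231488, minus strand). It was at 18.3, 29.4 and 19.2 CPM in young and 4.10, 1.15 and 1.41 CPM in aged libraries, with Aged replicate 1 the highest of the aged. Pygl fell by 2.94 ± 0.33 (SE; limma adjusted p = 2.04e-06). It rested on 174 reads in young and 14 in aged cells, a pooled ratio of 10.8 with a counting interval of 6.27 to 20.2, and the aged values of replicates 2 and 3 lay at the 3-read floor of a library (1.08 to 1.54 CPM). With a pseudocount of 5 it fell by 1.92, and with 0.1 it fell by 3.46. The myeloid markers Itgam (1.44 to 4.35 CPM in young, 0 to 0.941 CPM in aged libraries) and Cd68 (11.1 to 16.9 and 6.66 to 11.3 CPM) were lower too, while Fcer1g was higher. The 7 myeloid markers summed to 66.1 to 69.1 CPM in young and 58.3 to 109 CPM in aged libraries, with Lyz2 and Adgre1 at 0, and their part in the result was not tested. Pygb, the brain form, was at 46.9 to 53.0 CPM in young and 42.0 to 44.5 CPM in aged libraries, without overlap, and did not pass (-0.18, interval -0.43 to 0.07, limma adjusted p = 0.300).

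Ratios within 10 pairs of related genes describe each family's makeup in these libraries. The test was made on the difference of the 2 genes' log2(CPM + 1) values, not on the share. With 3 libraries against 3 the exact two-sided permutation test over the 6 libraries cannot go below 0.1, so no pair could pass, and over the 10 pairs the lowest adjusted p was 0.2. In 6 pairs the shares of the groups did not overlap, a count for which no share over other gene pairs was made. Slc16a1 made up 28.0 ± 2.75% of Slc16a1 plus Slc16a3 in young and 48.8 ± 4.64% in aged cells (SD, n = 3; exact p = 0.1). Pygl was 31.0 ± 6.50% of Pygl plus Pygb in young and 4.87 ± 3.50% in aged cells (SD, n = 3; exact p = 0.1). These were the widest shifts, one towards MCT1 and the other away from Pygl. Aldoa took 96.1% of the aldolase pair in young and 98.3% in aged cells, and Slc2a1 46.2% and 52.2% of the transporter pair. Pgm1 went from 78.4% to 68.3% of its pair, and Pfkfb3 from 94.7% to 97.7%, without overlap, where Pfkfb4 rested on 18 reads in young and 3 in aged cells. On the log2(CPM + 1) scale the same pair overlapped and differed by 0.12 (exact p = 0.5). The shares of Hk1 against Hk2, Pfkl and Pfkm against Pfkp, and Ldhb against Ldha overlapped.

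**Figure D4:**
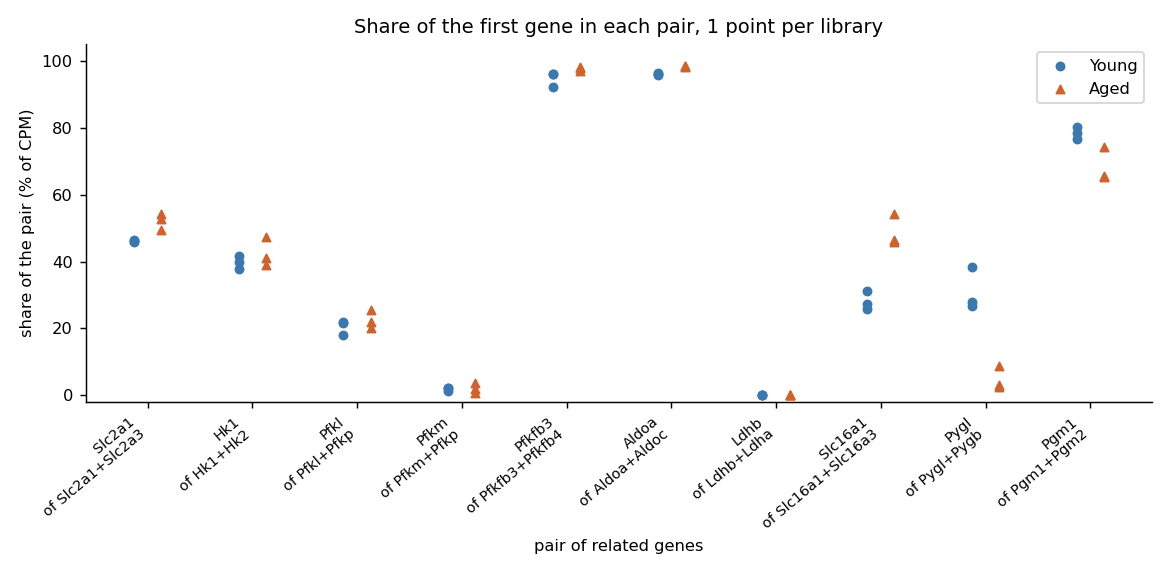
Share of the first gene in each of 10 pairs of related genes, as a percentage of the pair's CPM, 1 point per library. Slc16a1 moves from about 28.0% in young to 48.8% in aged cells and Pygl from 31.0% to 4.87%, while pairs such as Hk1 and Hk2 overlap.

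Libraries of a group did not vary alike. Aged replicate 2 was the lowest aged library in 16 of the 22 lower genes, Aged replicate 3 in 5 and Aged replicate 1 in 1. No such count was made over all genes, so whether these genes stand out in it is not known. Young replicate 3 was the lowest young library for Gpi1, Aldoa, Aldoc, Tpi1, Gapdh, Pgk1, Eno1, Pkm and Ldha, among others. It was the highest young library for Slc2a1, Slc2a3, Hk1, Pfkfb3 and Pdk1. Leaving out 1 library at a time kept 19 to 22 of the 22 lower calls and both higher calls. The calls lost were those of Hk1, Gyg and Slc16a3.

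Neighbouring genes of the same pathways, from lists of transporters, isoenzymes, regulators and side branches, were counted in the same fit. Of 87 listed genes 53 were tested, of which 5 (9.43%) were lower, 7 (13.2%) higher and 41 did not pass, with a median log2 fold change of -0.05. These shares lay below the 12.5% and 16.2% over all genes tested, and the counts per list are small. In the pentose phosphate and ribose list 2 of 7 tested genes (28.6%, beside 16.2% over all genes) rose. Prps1, which turns ribose 5-phosphate into the nucleotide precursor PRPP, was at 52.1 to 61.1 CPM in young and 90.9 to 103 CPM in aged libraries and rose by 0.74 ± 0.11 (SE; limma adjusted p = 3.08e-05). Rpia, the ribose 5-phosphate isomerase, was at 66.8 to 76.1 CPM in young and 92.2 to 106 CPM in aged libraries and rose by 0.50 ± 0.10 (SE; limma adjusted p = 8.44e-04). The other 5 tested genes of the list did not pass, with log2 fold changes of -0.83 (Shpk) to 0.23 (Rbks).

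Of 17 tested genes of glycogen and sugar nucleotides 3 (17.6%, beside 12.5% over all genes) fell, among them Pygm and Ppp1r3b. Pygm, the muscle phosphorylase, was at 9.56, 7.90 and 14.2 CPM in young and 2.05, 0.767 and 0.941 CPM in aged libraries. It fell by 2.37 ± 0.35 (SE; limma adjusted p = 4.37e-05) on 81 reads in young and 8 in aged cells, while it fell by 1.30 with a pseudocount of 5 and fell by 3.05 with 0.1. Ppp1r3b, which targets protein phosphatase 1 to glycogen, fell by 0.60 ± 0.15 (SE; limma adjusted p = 0.0043), with DESeq2 giving an adjusted p of 0.0598. Gsk3b, a kinase of glycogen synthase, was at means of 223 and 216 CPM and did not pass (-0.05).

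Regulators of glycolysis and its side routes held 3 higher calls among 9 tested genes in limma (33.3%, beside 16.2% over all genes), of which Gpd1l was lost in most single-library omissions. Tigar lowers fructose 2,6-bisphosphate and so opposes Pfkfb3. It was at 10.0, 12.2 and 9.61 CPM in young and 23.6, 18.4 and 24.5 CPM in aged libraries and rose by 0.99 ± 0.21 (SE; limma adjusted p = 0.0011), 2.09-fold. Gpd2, the mitochondrial arm of the glycerol phosphate shuttle, was at 136 to 151 CPM in young and 178 to 226 CPM in aged libraries and rose by 0.48 ± 0.09 (SE; limma adjusted p = 4.33e-04). Gpd1l, a glycerol 3-phosphate dehydrogenase, rose by 0.62 ± 0.20 (SE; limma adjusted p = 0.0288), a call lost in DESeq2 (0.197), with upper-quartile scaling (0.0547) and without any 1 library other than Young replicate 3 (0.0549 to 0.138).

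Around pyruvate dehydrogenase 2 of 12 tested genes (16.7%) rose in limma, near the 16.2% over all genes, while 5 had an unadjusted p under 0.05 on the higher side and DESeq2 called 0. Pdhb, a subunit of its first enzyme, was at 36.3 to 44.6 CPM in young and 52.2 to 56.3 CPM in aged libraries and rose by 0.39 ± 0.12 (SE; limma adjusted p = 0.0229). Pdhx, the binding protein of the complex, rose by 0.89 ± 0.27 (SE; limma adjusted p = 0.0195). Both calls were lost in DESeq2 (adjusted p = 0.188 and 0.105). Pdhb was also lost with upper-quartile scaling (0.0612) and without Aged replicates 1 or 2 or Young replicate 2 (0.0533 to 0.112), and Pdhx without Aged replicate 3 or Young replicates 2 or 3 (0.0633 to 0.0895). Of 4 tested glucose and fructose transporters outside the 37 genes 2 (50%, beside 12.5% over all genes) fell. Slc2a9, known as a urate carrier, fell by 1.24 ± 0.29 (SE; limma adjusted p = 0.00334), with 8.45 to 10.8 CPM in young and 2.56 to 3.83 CPM in aged libraries. Slc50a1, a sugar transporter of the SWEET family, fell by 0.68 ± 0.23 (SE; limma adjusted p = 0.0303), lost in DESeq2 (0.0807) and without Aged replicates 2 or 3 or Young replicates 1 or 2 (0.0509 to 0.171). Limma called 0 of the 4 tested gluconeogenesis genes, as did edgeR and DESeq2, and 0 of them had an unadjusted p under 0.05.

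**Figure D5:**
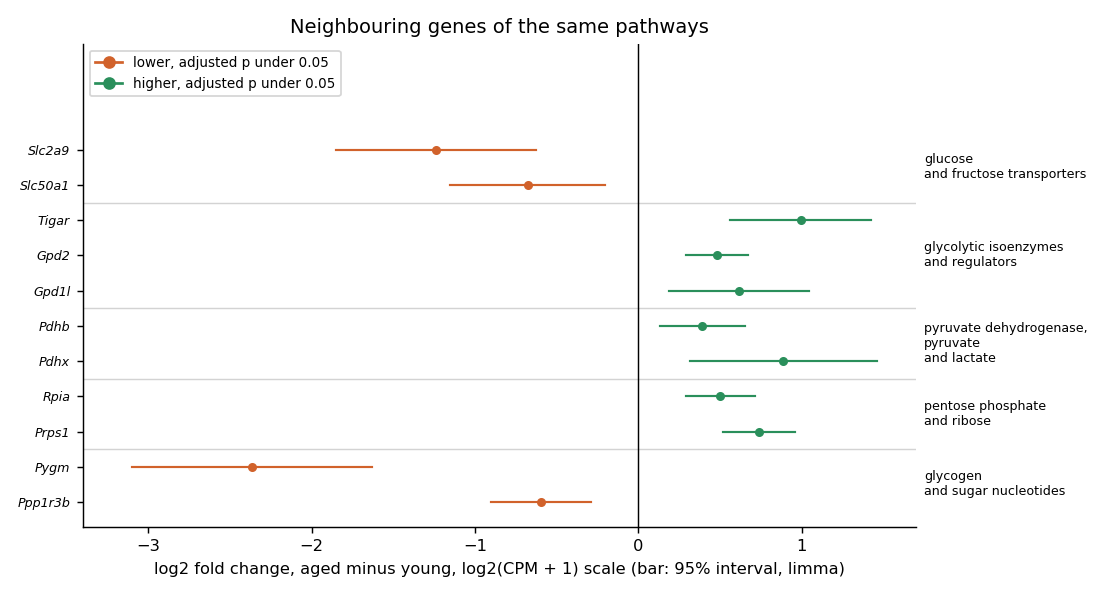
Log2 fold change, aged minus young on log2(CPM + 1), of the called neighbouring genes described in the text, with 95% intervals from limma, grouped by list. Among the genes plotted, Pygm (-2.37) lies farthest to the left and Tigar (0.99) farthest to the right, and no interval crosses 0.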

How the data were processed

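RNA of splenic CD8 T cells was measured in 6 libraries, 3 young and 3 aged. Libraries were made from 500 ng of RNA with the QuantSeq 3′ kit, which reads transcript ends, per the labels' protocols. The build was GRCm38 (mm10), per the submitters' processing notes, while for the aligner, the counter and its use of strand the answer is not given in the sources used here. CPM values per Ensembl identifier were deposited by the authors, and 100% of them are whole multiples of 1 read within 0.001 reads, so whole reads were recovered. The limit set by a count of 0 was 3 reads, 1.08 to 1.54 CPM per library. Without molecular identifiers described, intervals and floors cover counting error only. An identifier with a blank value was left out. The column of Aged replicate 2 is named replicate 3 in its header and was taken as replicate 2, by the record tying files to samples.

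Genes averaging 1 CPM or more over the libraries were tested with limma 3.58.1 (R 4.3.3, intensity trend) on log2(CPM + 1), a scale that understates changes of low genes, with age group as the sole term and Benjamini-Hochberg adjustment over all genes tested. Folds without a log2 scale are ratios of mean CPM. Limma called 1701 genes higher and 1313 lower. The quasi-likelihood test of edgeR 4.0.16 on the recovered reads called 1443 higher and 1555 lower, limma with TMM scaling 1428 and 1554, with RLE scaling 1451 and 1531, with upper-quartile scaling 1306 and 1689, and limma-voom 1436 and 1520. Further alternatives were DESeq2 1.42.0, pseudocounts of 0.1 and 5, no filter and a minimum mean of 5 CPM, the replicate block and leaving out each library. Pairs were compared by exact permutation of library labels. The fits were tried on simulated data with the same spread for every gene, in which only genes at 20 CPM or more were changed. That trial does not cover changes in genes below that level, such as Pygl, or the spread of the real libraries.

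All 37 genes are accounted for. Those called, or at a mean of 100 CPM or more, are given in every library, and from each list of other genes up to 3 called ones with the smallest p, of which 1 is not reported here. The genes, lists and rules were chosen with earlier results of these data known. Positions are from GENCODE M21 and promoters from RefSeq (GRCm38.p6).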

Additional observations from a re-analysis of the deposited data

How the results depend on the processing

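Across all settings tried 20 to 24 of the 37 genes were lower and 2 higher. No pairing by replicate number was seen: same-numbered deviations correlated at 0.0209, 0.00025 and 0.0028, and differently numbered ones at -0.0259 to 0.0242. With the replicate block 23 genes were lower and 2 higher, Eno1 being the addition (adjusted p = 0.00982). It lost no call among the 37 genes. Pfkfb4 passed with RLE (adjusted p = 0.0466), TMM (0.0461) or upper-quartile scaling (0.0434), in edgeR (0.0357) and without the filter (0.0121). DESeq2 called 944 genes higher over all genes, and among the other genes of the pathways 3 lower and 4 higher. Leaving out 1 library gave 4 to 7 higher calls among those genes and a glycogen median of -0.62 to -0.45. In edgeR and with upper-quartile scaling 1 pentose phosphate gene was lower. Values whose sign turned were all of genes or pairs that did not pass. Leaving out 1 library they ran from -0.32 to 0.026 for Pfkl, -0.74 to 0.12 for Pfkm, -0.019 to 0.14 for Pgd, -0.016 to 0.13 for Tkt and -0.096 to 0.073 for Pgm2. The log2 ratio of Pfkm to Pfkp ran from -0.50 to 0.54 and that of Pfkfb3 to Pfkfb4 from -0.15 to 0.39. Pgd was at -0.022 with upper-quartile scaling. Tkt was at -0.014 in DESeq2, -0.0093 with RLE, -0.014 with TMM, -0.019 in edgeR, -0.021 in limma-voom and -0.043 with upper-quartile scaling. With a pseudocount of 5 the pair ratios were 0.18 for Pfkm to Pfkp, -0.49 for Pfkfb3 to Pfkfb4 and 0.049 for Ldhb to Ldha. The causes were not tested. Depth limits Pfkm, Pfkfb4, Ldhb and the aged level of Pygl.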

Other observations

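Of the 87 other genes of these pathways 34 averaged under 1 CPM, and 19 of them had no read in any library. Isoenzymes typical of other tissues were among these. The muscle mutase Pgam2, the neuronal enolase Eno2, the liver glycogen synthase Gys2 and the muscle glucose transporter Slc2a4 (GLUT4) were at 0 in all 6 libraries. Pklr, the pyruvate kinase of liver and red cells, and Hk3 each had 1 read, in Aged replicate 3. Pdk4 was at 0 too, as was the testis lactate dehydrogenase Ldhc. A count of 0 over the 3 libraries of a group allows up to 3 reads, 0.39 CPM for the young group and 0.449 CPM for the aged.

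Fbp1, the fructose bisphosphatase of gluconeogenesis, had 10 reads in young cells (2, 1 and 7 per library) and 0 in aged cells. Most of them came from Young replicate 3, and no test was made because its mean was under 1 CPM. The glucose 6-phosphatases G6pc and G6pc2 were at 0 in every library, while G6pc3, the form found in most tissues, was at means of 13.7 and 13.9 CPM.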
